A study of Mus musculus with 8 samples.

Results

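Genes that mark the inner retinal neurons were followed in RNA from isolated photoreceptor cells, a preparation in which those neurons are not the cell of interest. The 10 genes were Pax6, Tfap2a, Tfap2b, Gad1, Slc6a9 and Calb2 for amacrine cells, Onecut1 and Lhx1 for horizontal cells, and Rbpms and Sncg for ganglion cells. Every probe of the array that was not a control and whose RefSeq accession belonged to one of these genes was taken, which gave 21 probes for 10 of the 22907 genes with a named probe. Membership went by gene name, with no threshold on a measured value.

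Amacrine, horizontal and ganglion cells arise early from retinal progenitors, mostly before birth or shortly after it, whereas most rods are still maturing in the first postnatal weeks. Amacrine cells are inhibitory interneurons that release GABA or glycine, horizontal cells give feedback to photoreceptor terminals, and ganglion cells send the axons of the optic nerve. Pax6 is a paired homeodomain factor that progenitors need to keep their full range of fates and that amacrine and ganglion cells go on expressing, so that it marks more than a single class.

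The study used single-color Agilent SurePrint G3 arrays to ask how the photoreceptor transcriptome differs when Lpcat1, an acyltransferase that makes saturated phosphatidylcholine, is missing. There were 4 arrays labelled Lpcat1 HZ, for heterozygous mice, and 4 labelled Lpcat1 KO, all of postnatal day 8 and of the C57BL/6 strain. Per the methods, the KO allele came from a C57BL6/N line that was crossed to C57BL6/J, animals homozygous for the rd8 allele of Crb1 were not used, and CD73-positive cells of trypsin-dissociated retinas were collected on magnetic beads. Both groups went through the same isolation, and no group held wild-type cells. Nothing in the labels says whether the arrays of a group came from separate animals, so the p-values below measure the spread between arrays, which may be technical.

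Values are log2 signal intensities minus the array's own 75th percentile, so that 0 stands for that percentile. The scanner software marks a spot whose signal lies well above background, and on each array 59.48% to 64.62% of the 56605 probes carried that mark, with 0 saturated spots. Probes that carried it on 4 or more arrays were tested, which left 34303 probes and 14845 named genes. HZ replicate 4 stood apart with 458 non-uniform spots, where the other 7 arrays had 2 to 25. All KO arrays shared one row of the slide and all HZ arrays the other, so that slide row and genotype cannot be told apart. Lpcat1 itself read between -1.17 and -0.81 in HZ and between -1.16 and -0.85 in KO, so that its single probe did not tell the genotypes apart, and these are given as labelled. All 21 rod genes of a marker list, among them Nrl, Crx and Nt5e, the gene of CD73 itself, were well above background on all 8 arrays.

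The start regions of the members that were measured on all arrays, and of Gad1, which was measured on none, are shown so that the genes of both kinds can be set side by side. Each is the 250 bases before a RefSeq transcript start on build GRCm38.p6, read 5′ to 3′ on the plus strand. RefSeq windows were held for 8 of the 10 members. Capitals mark matches, on either strand, to TAATCC, the core bound by the photoreceptor factors Crx and Otx2, to ATCAAT, the core bound by Onecut factors, to the TATA box TATAAA, and to the GC box GGGCGG. The windows are chr2:105668646-105668895 for Pax6, chr4:117835008-117835257 for Slc6a9, chr9:74861671-74861920 for Onecut1 and chr2:70561879-70562128 for Gad1.
Pax6: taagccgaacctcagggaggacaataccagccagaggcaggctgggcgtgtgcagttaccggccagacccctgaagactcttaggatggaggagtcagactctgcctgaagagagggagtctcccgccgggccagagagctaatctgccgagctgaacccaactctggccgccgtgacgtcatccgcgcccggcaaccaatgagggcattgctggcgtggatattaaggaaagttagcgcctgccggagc
Slc6a9: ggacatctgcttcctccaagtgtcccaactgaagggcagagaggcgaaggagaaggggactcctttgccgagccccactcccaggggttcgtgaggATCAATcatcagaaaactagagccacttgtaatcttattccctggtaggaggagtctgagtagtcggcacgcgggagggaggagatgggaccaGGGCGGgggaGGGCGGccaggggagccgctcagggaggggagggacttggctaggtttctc
Onecut1: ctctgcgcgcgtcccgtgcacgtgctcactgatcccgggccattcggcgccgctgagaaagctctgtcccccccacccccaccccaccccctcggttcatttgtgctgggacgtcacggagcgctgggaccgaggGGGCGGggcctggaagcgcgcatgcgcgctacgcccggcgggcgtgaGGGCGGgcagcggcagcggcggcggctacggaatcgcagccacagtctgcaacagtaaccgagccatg
Gad1: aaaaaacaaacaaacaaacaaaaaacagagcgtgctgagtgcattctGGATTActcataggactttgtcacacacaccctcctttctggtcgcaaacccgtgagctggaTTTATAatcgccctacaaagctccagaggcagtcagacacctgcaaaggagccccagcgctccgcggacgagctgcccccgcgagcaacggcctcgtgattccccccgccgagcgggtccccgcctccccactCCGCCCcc
The motifs did not overlap each other in these windows. The Pax6 window held none of the 4 motifs, and nor did the window of its other start region. The printed Slc6a9 window held an Onecut core and GC boxes, while the windows of its other 2 start regions held none of the 4, the Onecut1 window GC boxes, and the Gad1 window a Crx core, a TATA box and a GC box, those of Gad1 on the minus strand. Over all 32851 RefSeq windows of the same length, 6.25% held the Crx core, 6.72% the Onecut core, 12.4% the TATA box and 32.7% the GC box. A match is a run of letters and not a binding site.

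Only 3 of the 10 members were well above background on all 8 arrays, namely Pax6, Slc6a9 and Onecut1. The 4 members Tfap2a, Tfap2b, Calb2 and Lhx1 reached that mark on 1 to 3 arrays by their brightest probe. Gad1, Rbpms and Sncg reached it on 0 arrays with any of their probes. Of the 21 member probes, 4 were well above background on 8 arrays, 7 on 1 to 3 and 10 on 0. By array, 3 to 6 members were measured, with the most on HZ replicate 3 and 3 on each of HZ replicate 1, KO replicate 1, KO replicate 3 and KO replicate 4.

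**Figure D1:**
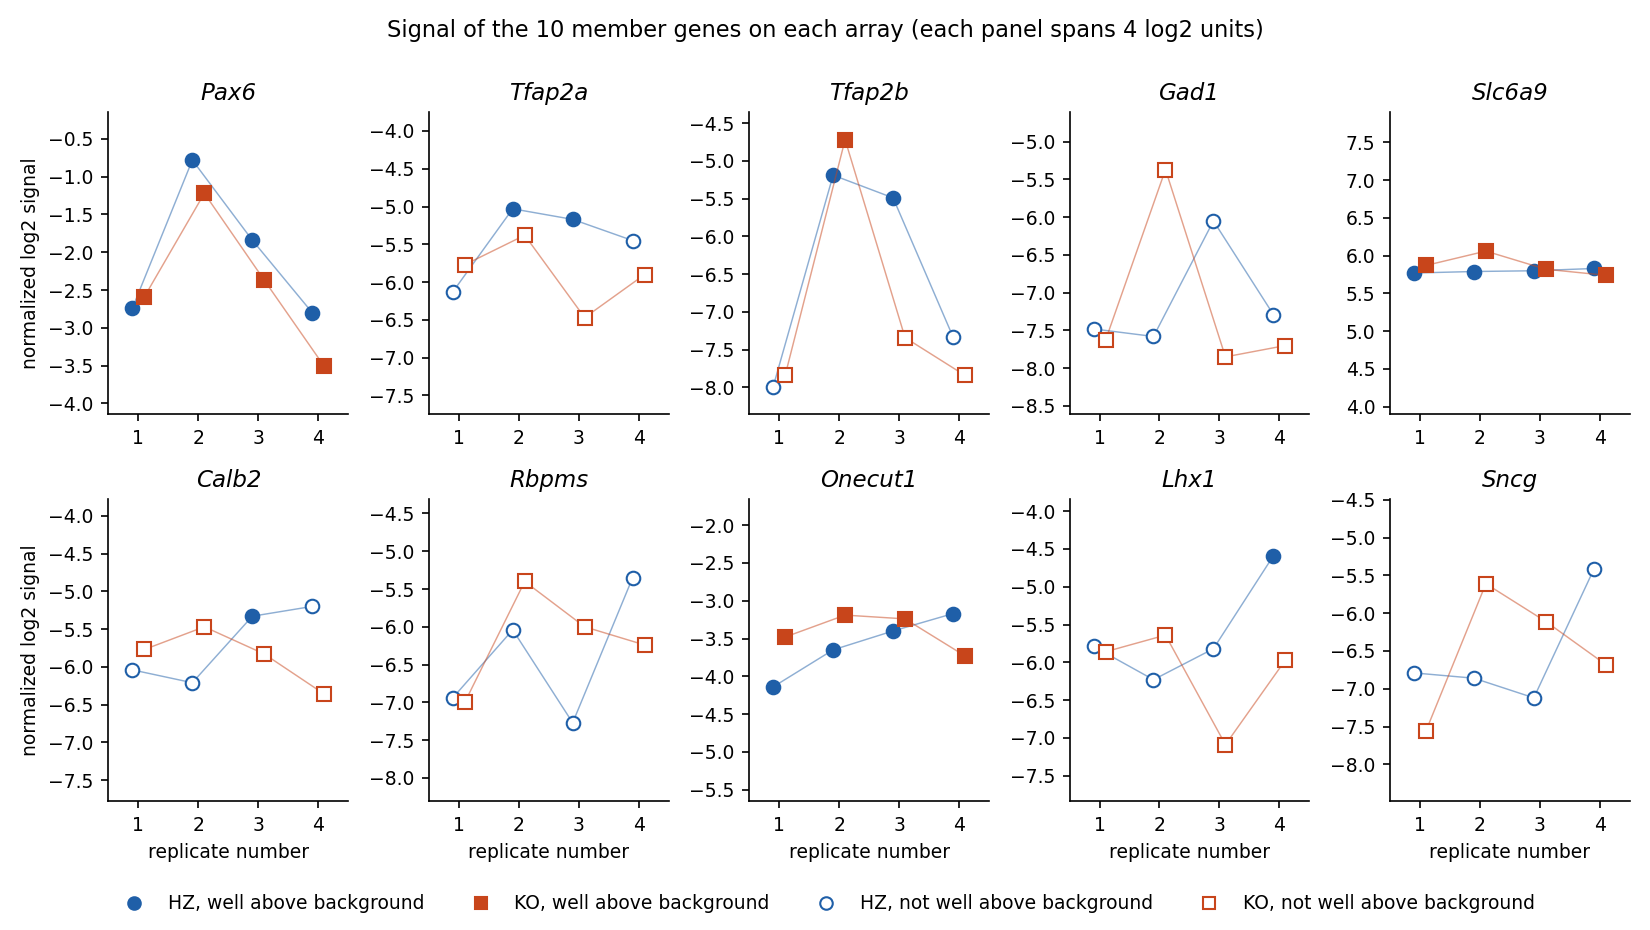
Normalized log2 signal of the reported probe of each of the 10 members (y axis, each panel spanning 4 log2 units) against replicate number (x axis), for the 4 HZ arrays (circles) and the 4 KO arrays (squares); filled symbols are well above background and open symbols are not. Pax6 is highest at number 2 in both genotypes, Slc6a9 lies between 5.74 and 6.06 throughout, and 7 of the 10 panels hold open symbols.

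Pax6, the transcription factor shared by progenitors and amacrine cells, varied more from array to array than between genotypes. Its brightest probe read -2.74, -0.78, -1.84 and -2.80 on HZ replicates 1 to 4 and -2.59, -1.22, -2.37 and -3.51 on KO replicates 1 to 4. The groups overlapped, and within each genotype the highest array exceeded the lowest, by 4.08-fold in HZ and by 4.88-fold in KO. The mean was -2.04 ± 0.951 (SD, n = 4) in HZ and -2.42 ± 0.941 (SD, n = 4) in KO, a difference of -0.38, or 1.30-fold lower in KO (SE 0.579, 95% confidence interval -1.71 to 0.95, limma adjusted p = 0.858). With the replicate number as a block the interval was -0.79 to 0.024 (limma adjusted p = 0.433). KO was below HZ at 3 of 4 replicate numbers, by 0.45, 0.53 and 0.71 at numbers 2, 3 and 4 on the log2 scale, and above it by 0.15 at number 1. Without HZ replicate 2 the difference was 0.037. A second tested probe of Pax6 gave a difference of -0.35 (SE 0.474, limma adjusted p = 0.842), in the same direction.

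Slc6a9, the glycine transporter GlyT1 that glycinergic amacrine cells use to take glycine back up, was the steadiest member. It read 5.77, 5.79, 5.80 and 5.83 in HZ and 5.87, 6.06, 5.82 and 5.74 in KO, far above the 75th percentile on every array. The groups overlapped, with KO replicate 2 the highest and KO replicate 4 the lowest of the 8. The difference was 0.074 (SE 0.0889, 95% confidence interval -0.13 to 0.28, limma adjusted p = 0.820), an interval from 0.913-fold to 1.21-fold. A single probe measured the gene.

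Onecut1, a factor needed for horizontal cells to form and also used in early photoreceptor precursors, was the only member of the horizontal class measured on all arrays. It read -4.14, -3.65, -3.40 and -3.17 in HZ and -3.48, -3.19, -3.24 and -3.73 in KO. The lowest array was HZ replicate 1 and the highest HZ replicate 4, so that HZ spanned the KO values. The difference was 0.18 (SE 0.217, 95% confidence interval -0.32 to 0.68, limma adjusted p = 0.823), and it was -0.0038 without HZ replicate 1.

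The AP-2 factors Tfap2a and Tfap2b, which direct amacrine and horizontal fates, were near the limit of measurement. Tfap2b was well above background on HZ replicates 2 and 3, at -5.19 and -5.49, and on KO replicate 2, at -4.72, and the other 5 arrays lay between -7.99 and -7.33. By its brightest probe, both arrays with number 2 thus carried signal for Tfap2b, as they carried the highest Pax6. Its second probe was well above background on 0 arrays and read -7.94 on HZ replicate 2 and -6.89 on KO replicate 2. Tfap2a was well above background on 2 of 4 HZ arrays, replicate 2 at -5.03 and replicate 3 at -5.17, and on 0 of 4 KO arrays. The other 2 HZ arrays read -6.13 and -5.45 and the KO arrays between -6.47 and -5.38, so that the groups overlapped, and no fold is given. Every other Tfap2a probe was well above background on 0 arrays.

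Calb2, the calcium-binding protein calretinin of amacrine and ganglion cells, was well above background on 1 array, HZ replicate 3, at -5.33, and its other probe on HZ replicate 4 alone. Lhx1, a LIM homeodomain factor that places horizontal cells in their layer, was well above background on HZ replicate 4 alone, at -4.59, and its other HZ arrays, between -6.23 and -5.79, lay among the KO values of -7.09 to -5.64. That array was the one with 458 non-uniform spots, and it had the largest share of probes well above background, at 64.62%. Of the member spots 0 were marked as outliers, and the part of the array in the Lhx1 value was not tested. Gad1, which makes GABA from glutamate, Rbpms, an RNA-binding protein found in ganglion cells and hardly elsewhere in the retina, and Sncg, the gamma-synuclein of ganglion cells, were not well above background on any array. No member of the ganglion class was therefore measured.

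Between genotypes, 0 of the 3 tested members passed a fold of 1.2 with an adjusted p of 0.05, where limma called 0.0% of all tested probes, and 0 passed a fold of 1.5 with an adjusted p of 0.5, where it called 1.04%. At an unadjusted p of 0.05 the count was also 0, against 8.17% of all probes. The HZ and KO arrays overlapped for each of the 3 members, and they did not overlap for 6.33% of all probes. With the replicate number as a block, 0 members passed the looser thresholds, where 3.4% of all probes did. The methods' t-test with the same adjustment called 0 members. In bulk RNA of this kind, fewer cells of a type and less RNA per cell cannot be told apart.

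Wider sets of genes known from the same neurons passed no threshold in that fit either. A list of 28 other amacrine genes, 8 other horizontal genes and 28 other ganglion genes was followed, and 43 of these 64 genes were tested. Of the 43, 28 were lower and 15 higher in KO, where 6410 of all 14845 genes were lower and 8435 higher. The median difference was -0.14 over the 43 and 0.029 over all 14845 genes. In limma 0 of the 43 passed either pair of thresholds, where 0.0% and 1.46% of the named genes did. At an unadjusted p of 0.05 the count was also 0, against 9.3% of named genes. With the replicate number as a block, 5 of the 43 (Tfap2c, Th, Stmn2, Isl2 and Foxn4, named here after their values were seen) passed that p, against 12.5% of named genes. The looser thresholds with that block were passed by 1 of the 43, Foxn4, against 3.91% of named genes. Of the 5, Tfap2c and Th were lower in KO at 4 of 4 numbers, Foxn4 and Stmn2 at 3 of 4, and Isl2 was higher at 4 of 4. By class, the median difference was -0.14 over 18 amacrine genes, -0.32 over 5 horizontal genes and -0.031 over 20 ganglion genes. The groups did not overlap for 1 of the 43, Meis2, a homeobox gene of amacrine cells, which was chosen here after its values were seen and differed by 0.19 (SE 0.0847, limma adjusted p = 0.620), and they did not overlap for 7.99% of named genes.

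**Figure D2:**
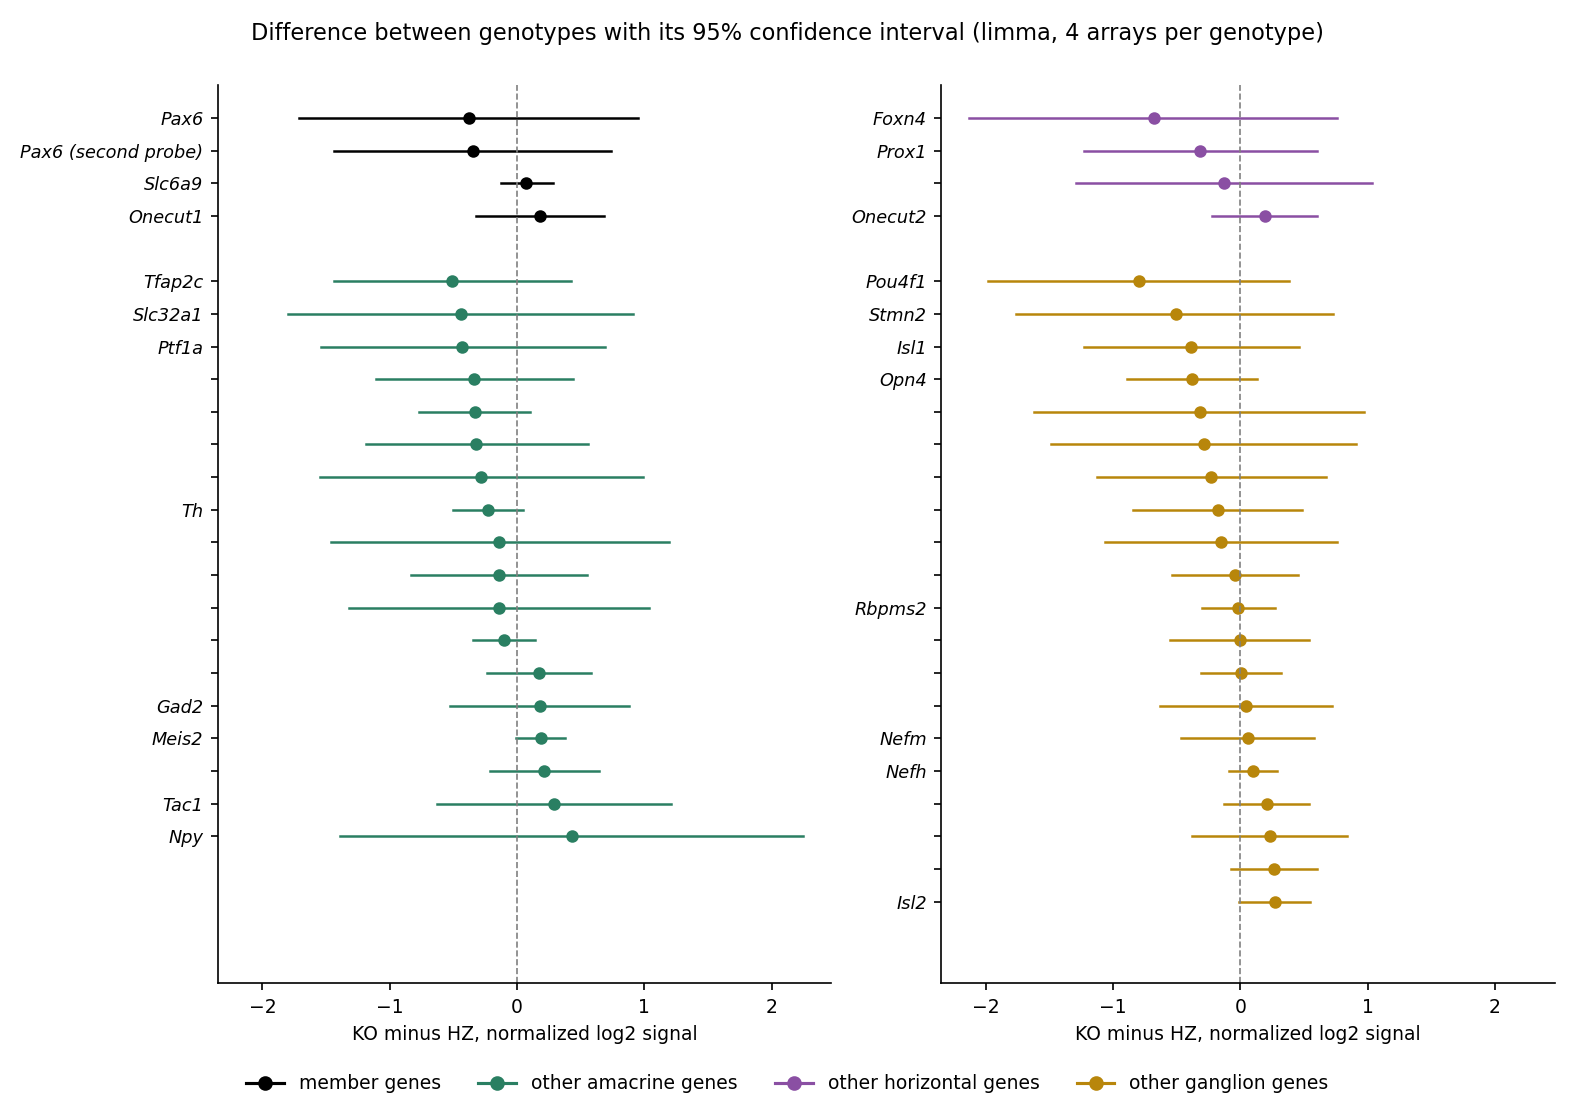
Difference between KO and HZ in normalized log2 signal (x axis) with its 95% confidence interval from limma, 4 arrays per genotype, for the 4 tested member probes and 42 of the 43 tested genes of the 3 wider lists (y axis), with names for the genes that the text names. The intervals of the members include 0, from -1.71 to 0.95 for Pax6 and from -0.13 to 0.28 for Slc6a9.

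Among the amacrine genes with the largest differences were Tfap2c, the third AP-2 factor of these cells, at -0.51 (SE 0.405, limma adjusted p = 0.746), and Slc32a1, the vesicular transporter that loads GABA and glycine, at -0.44 (SE 0.588, limma adjusted p = 0.839). Ptf1a, which commits progenitors to amacrine and horizontal fates, differed by -0.43 and the neuropeptide gene Npy by 0.43, with adjusted p of 0.813 and 0.883 in limma. None of the 4 separated the genotypes. Without HZ replicate 2, Tfap2c was -0.20 and Slc32a1 0.077, and Npy was -0.11 without HZ replicate 1.

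Among the horizontal genes, Foxn4, which acts before Ptf1a in the same progenitors, differed most. It read -3.98, -1.27, -2.54 and -3.34 in HZ and -3.76, -2.31, -3.42 and -4.37 in KO, a difference of -0.68 (SE 0.627, limma adjusted p = 0.773). With the replicate number as a block the SE was 0.244 and the adjusted p 0.407, which passed the looser thresholds. Leaving out single arrays moved the difference between -1.08 and -0.18, the latter without HZ replicate 2. Prox1, a homeodomain factor of horizontal and other inner retinal cells, differed by -0.32 and the Onecut1 relative Onecut2 by 0.19, with limma adjusted p of 0.828 and 0.778.

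Among the ganglion genes, Pou4f1, the POU factor of ganglion cells, had the largest difference. It read 2.58, 2.24, 3.77 and 3.86 in HZ and 3.04, 2.44, 2.67 and 1.1 in KO, a difference of -0.80 (SE 0.512, limma adjusted p = 0.704), and the spread within each genotype was as wide as the gap between them. Without HZ replicate 2 it was -1.09 with an adjusted p of 0.372, which passed the looser thresholds. Without KO replicate 4 it was -0.39 (limma adjusted p = 0.861), and without both arrays with number 2 it was -1.13 (limma adjusted p = 0.516). Stmn2, a microtubule regulator of growing axons, differed by -0.51, Isl1, a LIM homeodomain factor of ganglion and bipolar cells, by -0.39, and Opn4, the melanopsin of light-sensitive ganglion cells, by -0.38, with limma adjusted p between 0.683 and 0.797. Without HZ replicate 2, Stmn2 was -0.14 and Isl1 -0.016, and without KO replicate 1 Opn4 was -0.15.

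Close relatives and partners within these lists, picked here after their values were seen, were not measured alike. Gad2, the other enzyme that makes GABA, was well above background on 8 arrays where Gad1 was on 0. Onecut2 was on 8 arrays and Onecut3 on 0. Pou4f1 and Rbpms2 were on 8 arrays, while Pou4f2 and Rbpms were on 0. The neurofilament genes Nefm and Nefh were on 8 arrays and Nefl on 0, and Thy1, a surface protein of ganglion cells, was on 1. Probes differ in how brightly they bind, so that these counts describe probes and set no order between the genes.

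**Figure D3:**
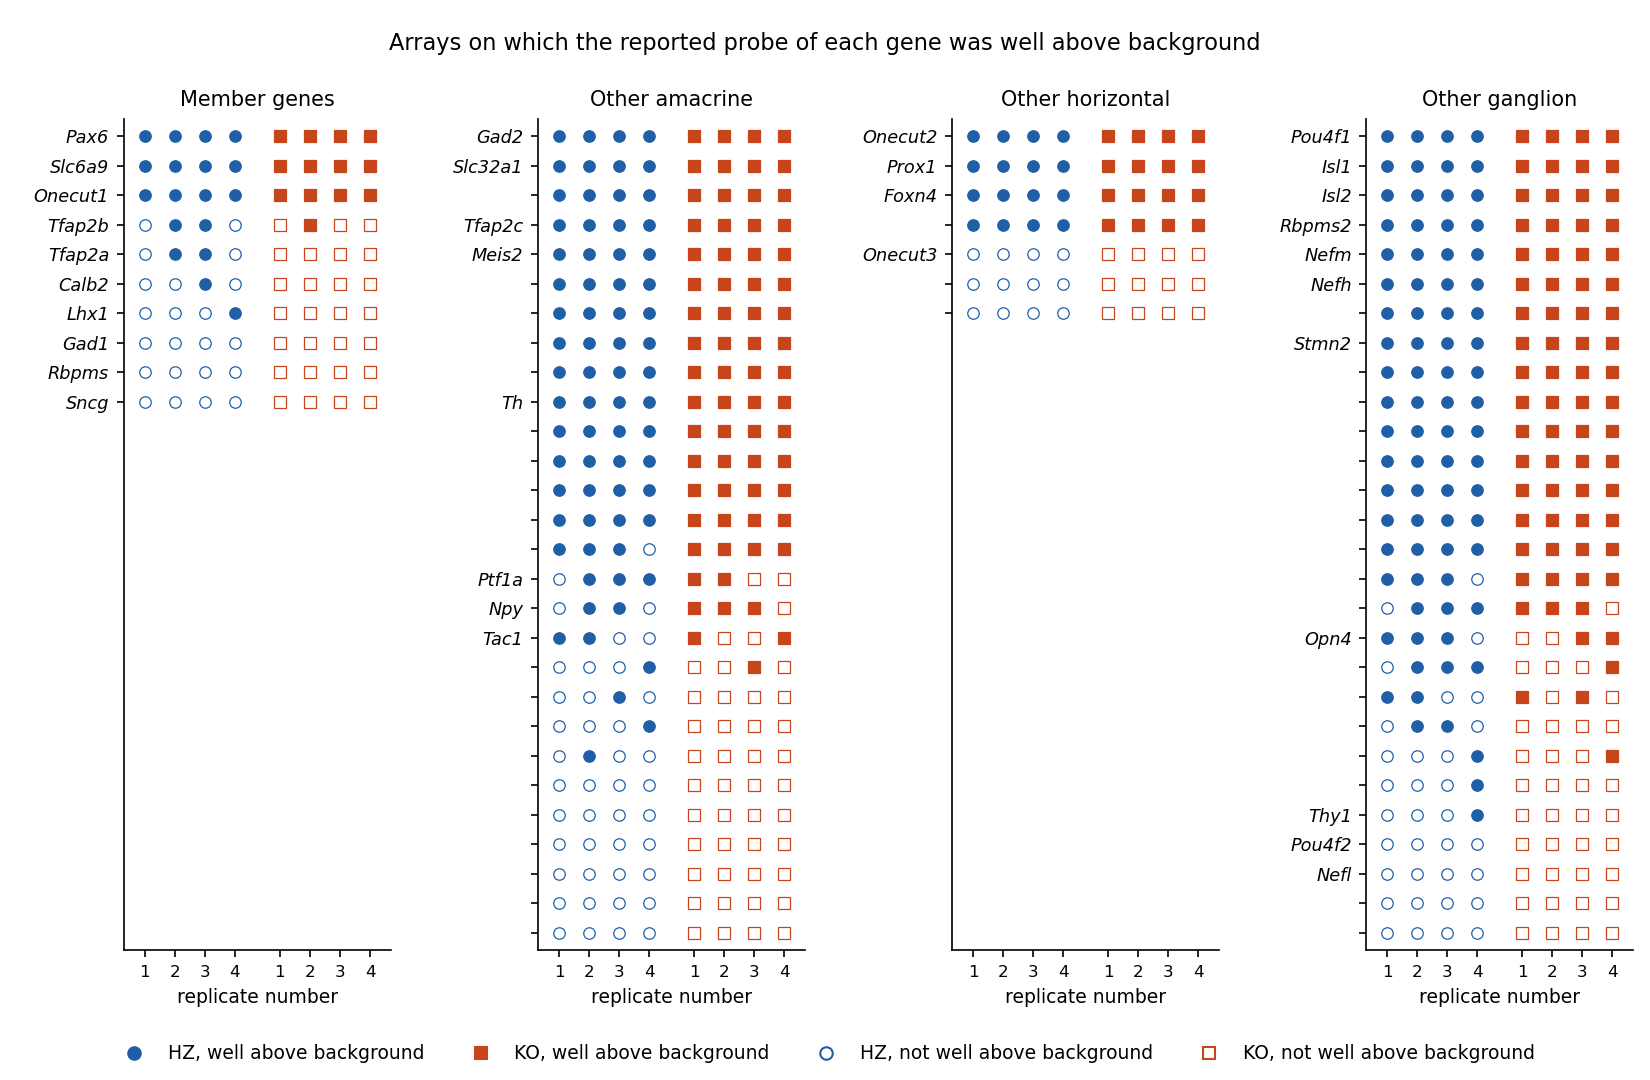
Arrays on which the reported probe of each of the 10 members and of 63 of the 64 genes of the 3 wider lists was well above background (filled) or not (open), with replicate number on the x axis and genes on the y axis (with names for those that the text names), HZ arrays as circles and KO arrays as squares. The 3 measured members and 33 genes of the wider lists are filled on all 8 arrays, and 3 members and 13 other genes on 0.

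By replicate number, the members differed from each other. The number is also the column of the slide, so that 1 HZ array and 1 KO array share each number. Pax6 was highest at number 2 in both genotypes and followed the order 2, 3, 1 and 4 in both. The means of the 2 arrays were -1.0 at number 2, -2.10 at number 3, -2.66 at number 1 and -3.16 at number 4, a range of 4.46-fold. Numbers 1 and 4 were the closest neighbours in HZ, at -2.74 and -2.80. The limma F-test of the number, with genotype in the fit, gave a p of 9.22e-04 for Pax6 and an adjusted p of 0.274.

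Slc6a9 and Onecut1 did not follow that order. Slc6a9 was highest at number 4 in HZ and at number 2 in KO, with a range of 1.1-fold between number means (limma F-test adjusted p = 0.807). Onecut1 was also highest at number 4 in HZ and at number 2 in KO, with a range of 1.40-fold (limma F-test adjusted p = 0.663). The test of the number thus passed an adjusted p of 0.05 for 0 of the 3 members, where it did for 0.0% of all tested probes, and an unadjusted p of 0.05 for 1, where it did for 13.8%. One number was highest in both genotypes for 1 of the 3, against 40.5% of all probes, and number 2 was so for 15.5% of all probes.

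In the wider lists, 17 of the 43 genes (39.5%) passed an unadjusted p of 0.05 for the number, against 13.2% of all named genes tested, and 0 passed an adjusted p of 0.05. The same number was highest in both genotypes for 27 of the 43 (62.8%), against 45.1% of named genes. Of the 17, 15 were highest at number 2 in both genotypes, as Pax6 was, and over all 43 it was 20 (46.5%), against 23.8% of named genes. Slc32a1 read -4.50, -1.95, -3.35 and -4.24 in HZ and -4.48, -2.99, -3.79 and -4.56 in KO, a range of 4.05-fold between number means. Stmn2 had a range of 3.72-fold and Foxn4 of 4.21-fold. Pou4f1 did not show it, with its highest array at number 4 in HZ and at number 1 in KO.

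Genes of other cells moved with Pax6 over the same 8 arrays. The mean deviation of each list was compared with Pax6 as a description, since the arrays share a slide and the same 75th percentile scaling. Pearson's r was 0.910 for the amacrine list (rho 0.881), 0.826 for the horizontal list (rho 0.786) and 0.896 for the ganglion list (rho 0.738), and it was 0.720, 0.572 and 0.672 without the 2 arrays with number 2, which lay farthest from the median of Pax6. It was 0.964 for genes of dividing progenitors (0.887 without those arrays), 0.954 for Müller glia (0.867) and 0.868 for bipolar cells (0.806). For rod genes it was -0.464 (-0.116), for retinal pigment epithelium 0.131 (0.547) and for microglia -0.220 (-0.310).

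Single genes of those lists differed in their order. Ccnd1, the cyclin of progenitors, read -0.86, 1.48, 0.10 and -0.87 in HZ and -1.0, 0.96, -0.58 and -1.97 in KO, highest at number 2 in both genotypes. Rlbp1, a retinaldehyde-binding protein gene of the Müller glia list, was also highest at number 2 in both, at 0.83 and -0.033. Car14 of the Müller glia list was highest at number 1 in both, and Ube2c of dividing cells at number 2 in HZ and number 4 in KO. Of the tested genes, an unadjusted p of 0.05 for the number was passed by 10 of 12 Müller glia genes, 4 of 8 progenitor genes and 5 of 13 bipolar genes, against 2 of 21 rod genes. Number 2 was highest in both genotypes for 7 of 8 progenitor genes, 9 of 12 Müller glia genes and 8 of 13 bipolar genes, and for 0 of 21 rod genes. Over all 14845 named genes tested, 13.2% passed that p, and number 2 was highest in both genotypes for 23.8%. The signals of the tested genes of a list, each as a multiple of the array's 75th percentile and summed, ranged from 3.11 to 10.4 in HZ and from 2.83 to 6.13 in KO for progenitors, from 32.2 to 42.4 and from 22.3 to 40.6 for Müller glia, from 74.9 to 122 and from 64.6 to 84.5 for bipolar cells, and from 1560 to 1890 and from 1520 to 1750 for rods. The part of these cells, of the cell isolation and of the slide column in the Pax6 values was not tested.

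**Figure D4:**
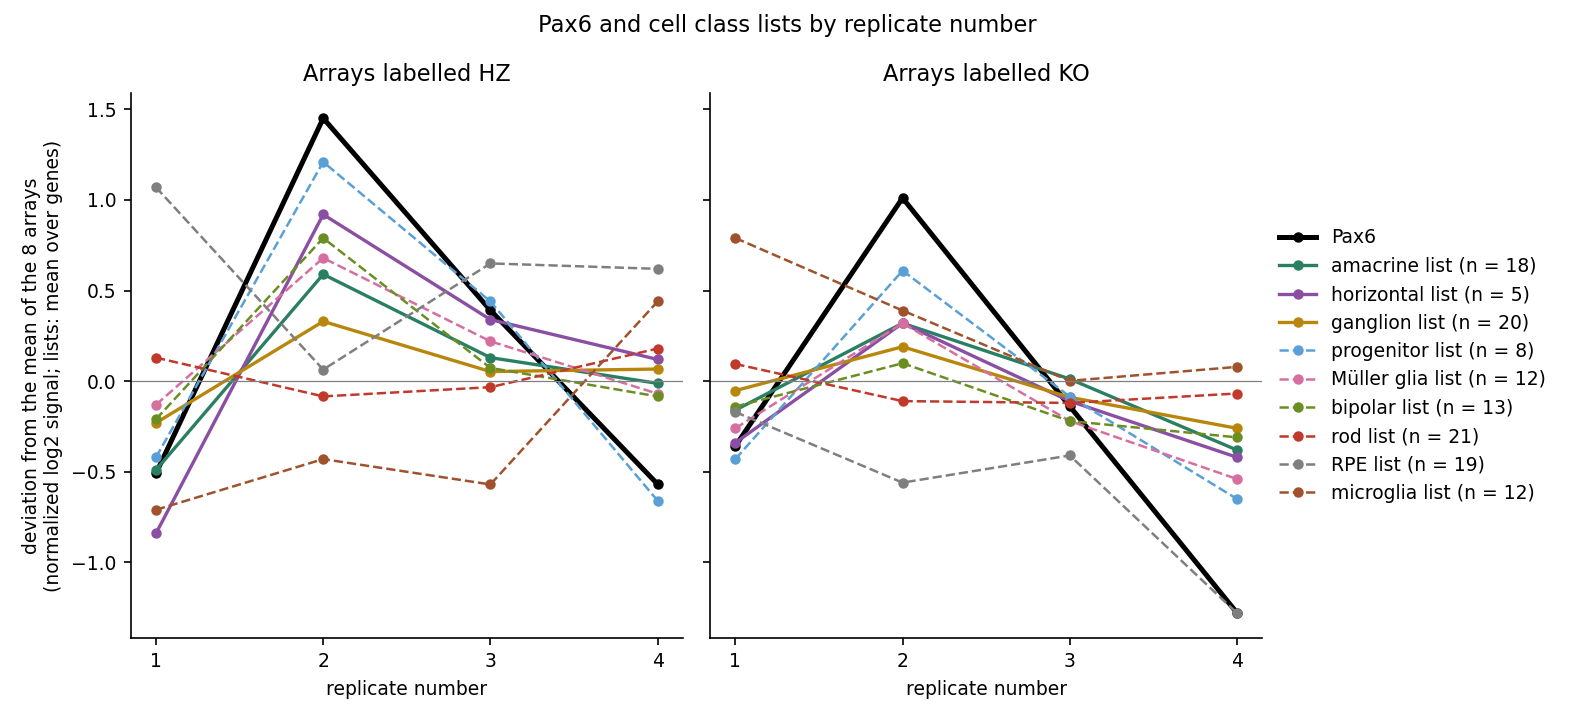
Deviation of Pax6 and of the mean of each marker list from its mean over the 8 arrays, in normalized log2 signal (y axis), against replicate number (x axis), for the HZ arrays (left) and the KO arrays (right); n is the number of tested genes in a list. Pax6 and the amacrine, horizontal, ganglion, progenitor, Müller glia and bipolar lists peak at number 2 in both panels, and the rod list stays between -0.12 and 0.18.

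Pigment epithelium and microglia genes correlated less with Pax6 over the 8 arrays than the other non-rod lists did. The mean deviation of the retinal pigment epithelium list lay between 0.064 and 1.07 in HZ and between -1.28 and -0.17 in KO, and that of the microglia list between -0.71 and 0.44 in HZ and between 0.0017 and 0.79 in KO. Rpe65, the isomerase of the visual cycle in pigment epithelium, differed by -2.38 (SE 0.543, limma adjusted p = 0.368), and Cx3cr1, the fractalkine receptor of microglia, by 0.93 (SE 0.329, limma adjusted p = 0.540). Mlana of pigment cells differed by -2.26 and the microglial protease gene Ctss by 0.92. The looser thresholds were passed by 10 of the 19 tested pigment epithelium genes, each lower in KO, among them Rpe65 and Mlana, and by 0 of 12 microglia genes. They were also passed by 1 of 12 tested genes of the Müller glia list, Car14 at -1.28 (limma adjusted p = 0.346). Like Rpe65 and Mlana, Car14 was highest at number 1 in both genotypes and lower in KO at 4 of 4 numbers. Which cells gave its signal was not tested. Of 13 bipolar genes 1 passed the looser thresholds, Grik1 at -0.86 (limma adjusted p = 0.498). The rod genes Gnb1 at -0.73 and Cnga1 at -0.55 did not. With the mean of its probes Gnb1 differed by -0.31. Gnb1 passed the looser thresholds under 6 of 19 alternatives and Cnga1 under 0. These calls of Car14, Grik1, Rpe65 and Mlana were lost under 6, 12, 6 and 7 of the alternatives, with adjusted p of up to 0.744, 0.902, 0.787 and 0.854. The amacrine list lay between -0.49 and 0.59 in HZ and between -0.38 and 0.32 in KO.

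The genes most like the members over the 8 arrays were looked for among all tested genes, by Pearson's r of their deviations. For the mean of Pax6 and Slc6a9, in which Pax6 has by far the wider range, they were Ppib, a cyclophilin of the endoplasmic reticulum (r = 0.996), Sinhcaf, a subunit of the Sin3 corepressor complex (r = 0.996), and Myb, a transcription factor of dividing precursors (r = 0.993). Myb read -2.02, 0.017, -0.93 and -2.01 in HZ and -1.57, -0.40, -1.56 and -2.70 in KO, with number 2 again highest in both. For Onecut1 they were Myom1 (r = 0.940), a sarcomere gene, Sfxn4 (r = 0.926), a mitochondrial membrane protein, and 4930432K21Rik (r = 0.924). None of the 6 is in a marker list used here. With 8 arrays and 14845 genes to choose from, such values describe the arrays at hand.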

How the data were processed

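Total RNA of isolated photoreceptor cells was labelled with Cy3 and hybridised to single-color SurePrint G3 mouse arrays. The authors deposited the scanner intensity of every spot from Agilent Feature Extraction 10.7.1.1, already background-subtracted, and a set of log2 values after a 75 percentile shift, each probe centred on its median, which served as an alternative. Its array medians lay between -0.065 and 0.199, and its differences between arrays correlated with those from the scanner at r of 0.917 to 0.999 and with slopes of 0.983 to 1.0, so that direction and log base were the same. Only photoreceptor arrays were used.

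Intensities of all but control spots were put on the log2 scale and shifted by the array's 75th percentile, with outlier spots dropped and spots of the same probe averaged. The percentile lay between 882.0 and 1024.0 intensity units, and the number of arrays limits the precision. Probes were named through RefSeq accessions (32989 of 56605 matched). Tested probes were well above background on at least 4 arrays with at least 3 values in each group. A gene is its tested probe with the highest mean. Groups were compared two-sided with limma 3.58.1 in R 4.3.3, reading with the data.table package (version 1.17.8), with Benjamini-Hochberg adjustment. Values were tabulated and plotted with Python 3.11.15, pandas 2.3.3, scipy 1.17.1 and matplotlib 3.10.9. The tests were run on simulated data with independent probes and, for the replicate number, a far larger change than any range given here. That check does not show how often changes of the size seen here would be found. The thresholds come from the methods, which give folds of 1.2 or 1.5 and q-values of 0.05 or 0.5.

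The members, gene lists and rules were chosen with earlier results of these data known. Named are all members, the 4 genes of each amacrine, horizontal and ganglion list and the 2 of each other list with the largest absolute difference, any gene of the first 3 lists past a threshold, the 3 genes most like the tested members of each class, and Lpcat1, apart from genes given as detection counts and those said to be chosen later. A few genes of the lists count in the list values and are otherwise not reported here. Arrays that share a replicate number deviated from their group means together (Pearson's r from 0.164 to 0.337, above 0.1 in all 4 pairs, against -0.34 to 0.118 for other pairs). The numbers were therefore taken to pair the arrays in the fits with the replicate number as a block. The main fit between genotypes was unpaired, as in the methods. Alternatives were quantile normalization, normexp correction (offset 50), the percentile of probes measured on all 8 arrays, other filters on dim probes (none, or all 8 arrays), the mean of a gene's probes, the authors' values, trend and robust eBayes, the replicate block, the methods' t-test, each array left out and, chosen after seeing the data, leaving out both arrays with number 2.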

Additional observations from a re-analysis of the deposited data

Results flagged for a closer look

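Within each group of 4 arrays, the highest and lowest values of the named genes and of the lists were compared with their neighbours by Dixon's ratio of gap to range. In 5 of 84 groups a single array stood apart, where chance gives about 1 in 20, or 4.2. Tfap2b stood at -4.72 on KO replicate 2, against -7.84 to -7.34 on the other KO arrays. Gad1 stood at -5.37 on the same array, against -7.85 to -7.63, and was not well above background there. Opn4 stood at -5.16 on HZ replicate 3, against -5.41 to -5.37. Grik1, a glutamate receptor gene of bipolar cells, stood at -2.54 on HZ replicate 2, against -3.67 to -3.50. Ube2c, a gene of dividing cells, stood at -4.63 on KO replicate 1, against -4.12 to -4.06. Of the 5, 3 were on arrays with number 2.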

How the results depend on the processing

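The members that passed either pair of thresholds between genotypes stayed at 0 under all 19 alternatives run, and those that passed an adjusted p of 0.05 for the replicate number at 0 under all 17. At an unadjusted p of 0.05 for the number, the count of members was 1 and became 2 of 10 with no filter on dim probes, and it lay between 1 and 2 with each array left out. Over the other amacrine, horizontal and ganglion genes, the count past the looser thresholds was 0 and became 1 with the replicate block (Foxn4), 1 without both arrays with number 2 (Tac1, named after its values were seen) and 0 to 1 with each array left out (Pou4f1, without HZ replicate 2). The replicate block moved the count over all probes at the looser thresholds from 357 to 1167 and changed no call of a member. Of 490 differences of 26 single genes under alternatives, 481 kept their direction and 0 passed the stricter thresholds. The 4 genes past the looser thresholds (Rpe65, Mlana, Car14 and Grik1) lost that call in 31 of their 75 values, and the other 22 genes gained it in 25 of 415. With each array left out, the KO minus HZ difference lay between -0.78 and 0.037 for Pax6, -0.0038 and 0.32 for Onecut1, -0.77 and 0.077 for Slc32a1, -0.11 and 0.98 for Npy, -0.53 and 0.061 for Prox1 and -0.097 and 0.022 for Lpcat1. Lpcat1 was also 0.0049 with normexp correction and 0.022 without both arrays with number 2. The cause was not tested beyond the array left out. Signal over background was one limit, since 7 of 10 members could not be tested. The interval for Pax6 leaves changes from 0.305-fold to 1.93-fold possible, or from 0.578-fold to 1.02-fold with the replicate block.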
